A study of Mus musculus with 12 samples.

Results

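Expression was followed for 10 genes of the epithelial sodium channel and of the corticosteroid response in a mouse collecting duct cell line. They are the channel subunits Scnn1a, Scnn1b and Scnn1g, the receptors Nr3c1 and Nr3c2, the steroid-inactivating enzyme Hsd11b2, the hormone-responsive genes Sgk1, Tsc22d3 and Klf9, and the ubiquitin ligase Nedd4l. The members were taken by gene symbol from the deposited expression table, and each of the 10 matched 1 of its 48034 genes.

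IMCD3 cells come from the inner medullary collecting duct of the mouse, and all libraries were made from the single subclone 53a. From knowledge of the study, the subclone carries a dominant-negative form of a factor that controls transcription in kidney tubules, and mifepristone induces it. The 4 groups were vehicle, vehicle with 100 mM added NaCl, mifepristone, and mifepristone with 100 mM added NaCl, each with 3 libraries named A, B and C. Every group was grown in low-glucose medium with fetal bovine serum, and the labels name no corticosteroid among the treatments. Mifepristone is itself an antagonist of the glucocorticoid and progesterone receptors. No library came from cells without the inducible mutant, so an effect of the drug on these receptors and an effect of the mutant cannot be told apart in any comparison of mifepristone with vehicle. Separate cultures are not mentioned in the labels, so p-values reflect the spread between libraries, which may be technical. In RNA from whole cultures, fewer cells expressing a gene and less RNA per cell cannot be told apart.

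The channel is built from alpha, beta and gamma subunits and lets sodium enter principal cells of the collecting duct from the tubule fluid. Aldosterone acts through the mineralocorticoid receptor, and the enzyme encoded by Hsd11b2 protects that receptor by inactivating glucocorticoid in the same cell. The hormone-induced kinase SGK1 phosphorylates NEDD4L, which otherwise marks the channel for removal from the membrane, and Sgk1 is also known to respond to raised tonicity.

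Of the 7 genes that could be tested, Sgk1 had the largest change with added NaCl, and Hsd11b2 had the largest with mifepristone. Klf9 was high in mifepristone cells without added NaCl and low in the other 3 groups. Scnn1a, which encodes the alpha subunit, was higher in both mifepristone groups than in their vehicle groups, while the beta and gamma subunits were near the limit of detection throughout. Of the receptors, Nr3c1 was expressed well above Nr3c2 in all 12 libraries.

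**Figure D1:**
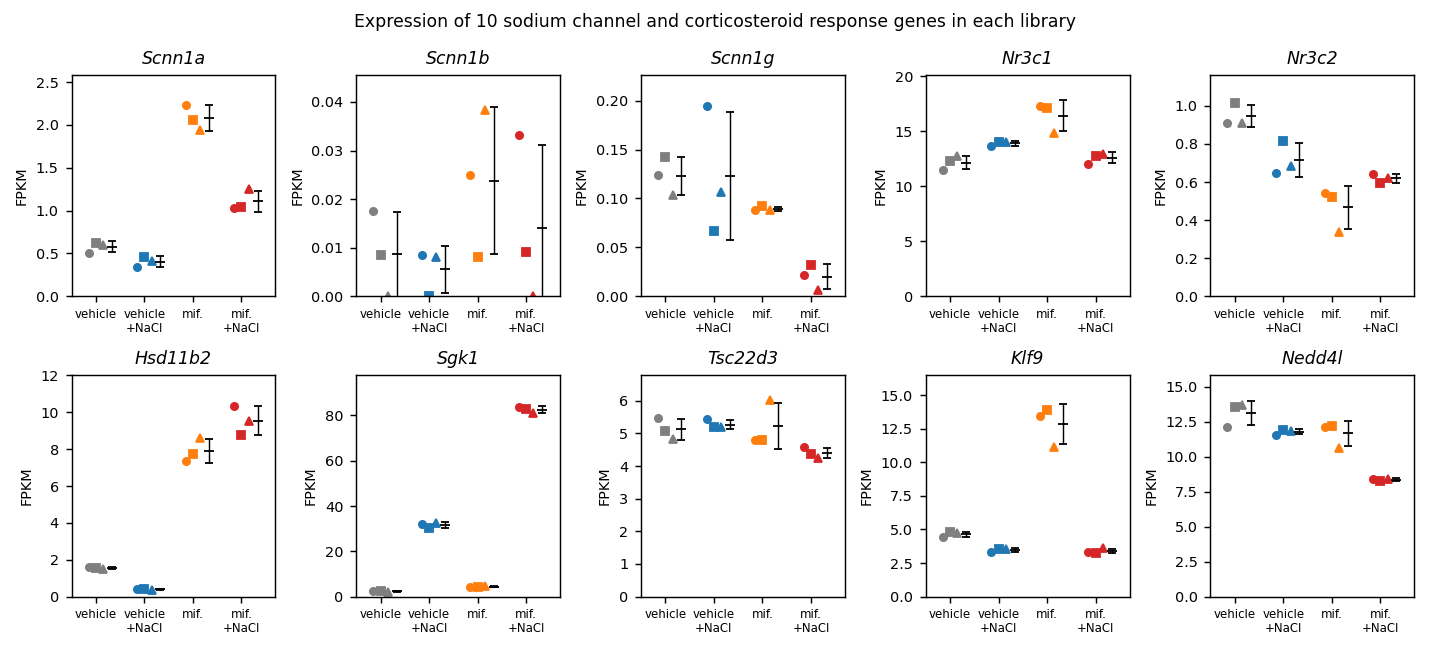
Expression of the 10 genes in each library, in FPKM on a linear axis from 0 with its own range in each panel; symbols are libraries A (circle), B (square) and C (triangle), and the bar beside them is the mean ± SD (n = 3). Sgk1 stands at 80.9 to 83.8 FPKM in mifepristone cells with NaCl, and Scnn1b never passes 0.0383 FPKM.

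Values are FPKM, fragments per kilobase of transcript scaled for depth, as deposited, and fold changes are differences of log2(FPKM + 0.5), which understate the change of genes near 0. The reads recovered from the table summed to between 41940955 and 49270776 per library. Correlations of log2 values were 0.989 to 0.997 within groups and 0.921 to 0.968 between groups. Among libraries, vehicle A and mifepristone C stood apart from the other libraries of their groups along transcript length: the rank correlation of a gene's deviation from its group mean with its exon length was -0.444 in vehicle A and -0.513 in mifepristone C, against -0.289 to 0.465 in the others (13904 genes). Markers of principal cells were mostly near 0, with 3 of 13 reaching the level required for testing (Tfcp2l1, Scnn1a and Hsd11b2), and the defining water channel gene Aqp2 held 0 to 6 reads per library. The summed level of the 13 markers ran from 5.82 to 6.83 FPKM in vehicle cells, 4.06 to 4.28 in vehicle with NaCl, 12.7 to 12.9 in mifepristone and 12.7 to 13.9 in mifepristone with NaCl. Scnn1a and Hsd11b2 themselves carried that rise. The 9 markers not among the 10 genes summed to 3.57 to 4.61 FPKM in vehicle and 3.12 to 3.38 in vehicle with NaCl. They summed to 2.24 to 3.01 in mifepristone and 2.53 to 3.09 in mifepristone with NaCl, below the matching vehicle groups. Of 7 proximal tubule markers, only Lrp2 and the water channel gene Aqp1 were tested, and Slc22a6 was at 0. Aqp1 ranged from 5.47 to 442 FPKM and Lrp2 from 0.130 to 1.30, and none of the others passed 0.298 FPKM. With NaCl, mean Aqp1 was higher and mean Lrp2 lower in both vehicle and mifepristone cells. The 5 fibroblast markers summed to 0.238 to 0.351 FPKM in the vehicle groups and to 2.99 to 6.32 in the mifepristone groups. Dcn alone carried this, since the other 4 summed to 0.180 to 0.291 FPKM in vehicle and 0.171 to 0.216 in mifepristone. Thick limb and distal tubule markers summed to 3.69 to 4.15 FPKM in vehicle, 0.838 to 0.981 in vehicle with NaCl and 0.167 to 0.259 over both mifepristone groups, with Umod the only one of 5 tested and Pvalb at 0. Intercalated cell markers summed to 0.439 to 0.531, 0.225 to 0.280, 1.62 to 1.63 and 2.20 to 2.50 FPKM in vehicle, vehicle with NaCl, mifepristone and mifepristone with NaCl, with Slc26a4 the only one of 8 tested. The 5 leukocyte markers summed to between 3.09 and 6.08 FPKM, with only Cd68 tested, and no endothelial marker of 4 was tested. The part of these differences in the results below was not tested.

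Of the 10 genes, 7 reached 1 FPKM in at least 3 libraries and were tested with limma among 14044 genes, with Benjamini-Hochberg adjustment over all of them. Scnn1b, Scnn1g and Nr3c2 did not reach that level. Scnn1a reached it only in the 6 mifepristone libraries, so a difference from vehicle was bound to accompany its passing. Mifepristone without NaCl changed 6 of the 7 tested genes, against 59.7% of all tested genes, and raised 5 and lowered 1, against 28.3% and 31.5%. With NaCl present it changed 5 of 7, against 58.7%, with 3 raised and 2 lowered, against 26.8% and 31.9%. Added NaCl changed 6 of 7 in vehicle cells, against 56.7%, with 2 raised and 4 lowered, against 25.2% and 31.5%. In mifepristone cells it changed 7 of 7, against 58.7%, with 2 raised and 5 lowered, against 24.5% and 34.2%. The effect of NaCl differed between mifepristone and vehicle cells for 6 of 7, against 31.1% of all genes, with 2 positive and 4 negative, against 13.6% and 17.5%. Each of these shares of members is to be read against a background in which most genes were called in the pairwise comparisons. Without vehicle A and mifepristone C, the mifepristone changes without NaCl were 1.98 for Hsd11b2, 1.43 for Klf9, 1.25 for Scnn1a, 0.82 for Sgk1 and 0.45 for Nr3c1, all with an adjusted p under 0.05.

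**Figure D2:**
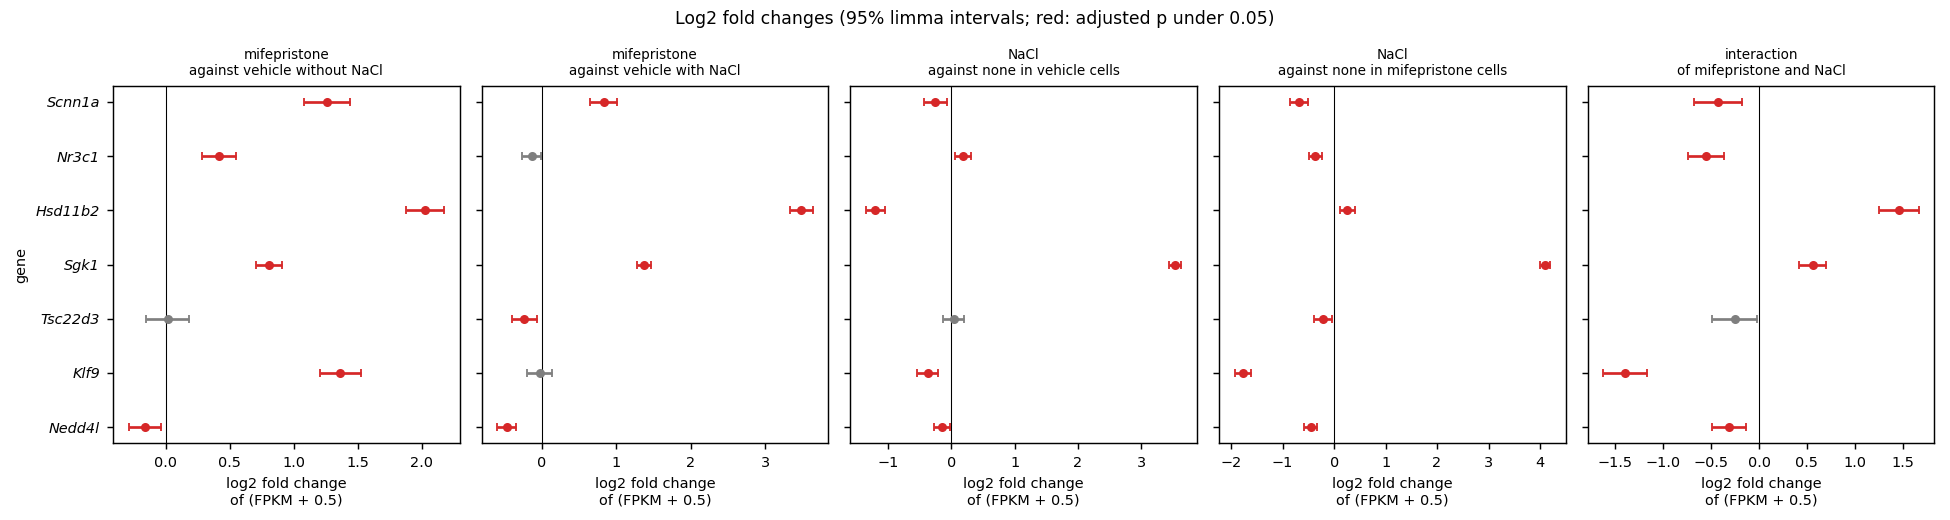
Log2 fold changes of FPKM + 0.5 for the 7 tested genes in the 5 comparisons, each panel with its own horizontal range; points are limma estimates, bars are 95% intervals, and red marks an adjusted p under 0.05. Sgk1 lies far to the right in both NaCl panels at 3.53 and 4.09, and Hsd11b2 reaches 3.48 for mifepristone with NaCl.

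Nr3c1 encodes the glucocorticoid receptor, which binds cortisol or corticosterone and then acts as a transcription factor. Its FPKM was 11.5, 12.2 and 12.7 in vehicle libraries A, B and C, and 13.6, 14.0 and 14.0 in vehicle with NaCl. It was 17.3, 17.1 and 14.8 in mifepristone and 12.05, 12.8 and 13.0 in mifepristone with NaCl. The 3 mifepristone libraries were the highest of the 12, and vehicle overlapped with mifepristone plus NaCl at the bottom of the order. Mifepristone without NaCl raised Nr3c1 by 0.42 on the log2 scale (SE 0.0593, adjusted p = 0.000107). Added NaCl lowered it in mifepristone cells, with a log2 change of -0.37 (SE 0.0593, adjusted p = 0.000304). In vehicle cells NaCl raised it by 0.19 (SE 0.0593, adjusted p = 0.0192), a call that was lost without vehicle A, where the change was 0.15 (adjusted p = 0.0762), and without vehicle plus NaCl B (adjusted p = 0.0553) or C (adjusted p = 0.0553). With NaCl present the difference between mifepristone and vehicle was -0.14 (95% interval -0.27 to -0.01, adjusted p = 0.0675), and it passed the test without mifepristone C (adjusted p = 0.0116). The 2 NaCl effects differed by -0.55 (SE 0.0839, adjusted p = 0.000639).

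Nr3c2 (chr8:76899442-77245012, plus strand, GRCm38) encodes the mineralocorticoid receptor, which carries the aldosterone response of the collecting duct. Its FPKM was 0.913, 1.01 and 0.912 in vehicle, and 0.650, 0.818 and 0.683 in vehicle with NaCl. In mifepristone it was 0.540, 0.523 and 0.337, and in mifepristone with NaCl 0.641, 0.595 and 0.623. The 4 groups did not overlap, with vehicle highest and mifepristone without NaCl lowest, and mifepristone C held the lowest value of all. These levels rested on 108 to 294 reads per library. Only 1 library reached 1 FPKM, so the gene was tested in an analysis added after the data were seen, in which limma's voom was applied to recovered reads of genes with at least 0.1 FPKM in 3 libraries. There Nr3c2 fell with mifepristone by 1.06 on the log2 scale (SE 0.144, adjusted p = 2.84e-05), and the difference with NaCl present was -0.20 (adjusted p = 0.261). Added NaCl lowered it in vehicle cells by 0.40 (SE 0.131, adjusted p = 0.0210) and raised it in mifepristone cells by 0.45 (SE 0.154, adjusted p = 0.0260). The last of these did not pass on the log2(FPKM + 0.5) scale with the same filter (change 0.22, adjusted p = 0.0623). The NaCl effects differed by 0.85 (SE 0.202, adjusted p = 0.00756). The antisense gene Gm10649 shares 247 exonic bases with Nr3c2, and it is not stated whether counting used strand.

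FPKM is scaled to transcript length, so the receptors were set side by side. The trend with exon length that differs between libraries remains in such ratios. Nr3c2 stood at 7.80% ± 0.567 of the Nr3c1 level in vehicle cells (SD, n = 3) and at 5.16% ± 0.583 in vehicle with NaCl. The share was 2.82% ± 0.470 in mifepristone and 4.93% ± 0.343 in mifepristone with NaCl. Vehicle was highest and mifepristone without NaCl lowest, and the 2 NaCl groups overlapped.

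Hsd11b2 (chr8:105518755-105523988, plus strand) encodes the enzyme that turns active glucocorticoid into its inactive form. Its FPKM was 1.60, 1.56 and 1.52 in vehicle, and 0.413, 0.410 and 0.367 in vehicle with NaCl. With mifepristone it was 7.34, 7.75 and 8.61, and in mifepristone with NaCl 10.3, 8.74 and 9.56. No groups overlapped, and every mifepristone library was above every vehicle library. The gap between the highest mifepristone library (8.61) and the lowest with NaCl (8.74) was small. Mean FPKM was 5.07-fold higher with mifepristone without NaCl and 24.1-fold higher with NaCl present, from 32 to 34 reads per library in vehicle with NaCl to 678 to 883 in mifepristone with NaCl. On the log2(FPKM + 0.5) scale these changes were 2.03 (SE 0.0671, adjusted p = 7.52e-10) and 3.48 (SE 0.0671, adjusted p = 1.46e-11), the latter placed 24 of 14044 genes by size. Added NaCl lowered Hsd11b2 by 1.20 in vehicle cells (95% interval -1.35 to -1.05, adjusted p = 7.89e-08) and raised it by 0.26 in mifepristone cells (95% interval 0.11 to 0.41, adjusted p = 0.00677). The difference between the 2 NaCl effects was 1.46 (SE 0.0949, adjusted p = 1.56e-06), placed 90 of 14044. On recovered reads with voom, which adds less to low values, the NaCl change in vehicle cells was -1.96, the mifepristone change with NaCl was 4.57 and the difference of NaCl effects was 2.23.

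Set against the receptor it protects, Hsd11b2 was at 1.65 ± 0.108 times the Nr3c2 FPKM in vehicle cells (SD, n = 3) and at 0.558 ± 0.0690 times in vehicle with NaCl. The ratio was 18.0 ± 6.59 in mifepristone and 15.4 ± 0.720 in mifepristone with NaCl. Both mifepristone groups lay above both vehicle groups in every library. The 2 mifepristone groups overlapped, and mifepristone C alone held the highest ratio, 25.6, against 13.6 in mifepristone A and 14.8 in mifepristone B. Mifepristone C also had the strongest trend with exon length (-0.513), and the exon lengths are 1840 bases for Hsd11b2 and 6474 for Nr3c2. The part of that trend in this ratio was not tested. Hsd11b1, which encodes the enzyme working in the opposite direction and was picked out after its values were seen, held 0 to 65 reads per library and averaged 0.00503 FPKM in vehicle and 0.289 in mifepristone.

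**Figure D3:**
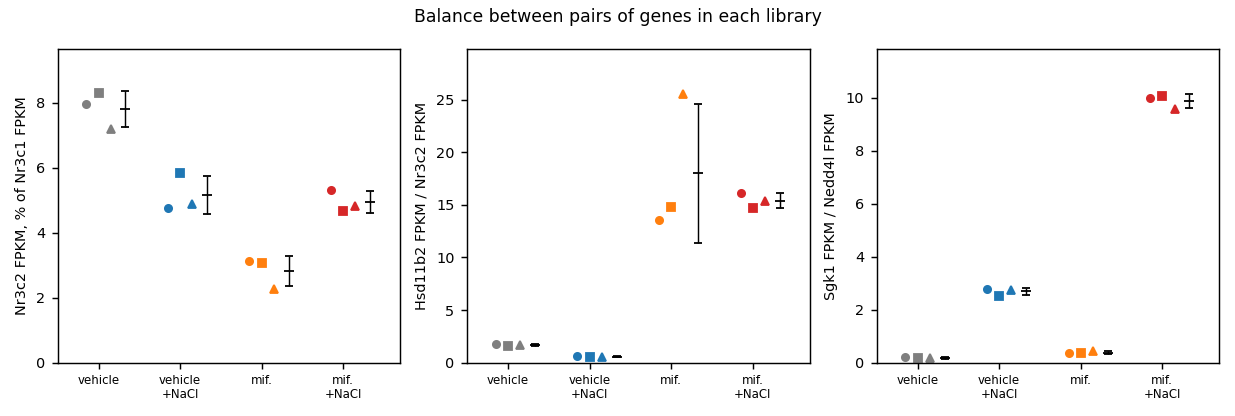
Ratios of FPKM between pairs of genes in each library: Nr3c2 as percent of Nr3c1 (left), Hsd11b2 over Nr3c2 (middle) and Sgk1 over Nedd4l (right), on linear axes from 0, with libraries A (circle), B (square) and C (triangle) and the mean ± SD (n = 3) beside them. Nr3c2 falls to 2.82% of Nr3c1 in mifepristone cells, and Sgk1 over Nedd4l reaches 9.89 in mifepristone cells with NaCl.

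Sgk1 (chr10:21882184-21999903, plus strand) encodes the serum and glucocorticoid regulated kinase, a kinase of the aldosterone response that also rises when cells are exposed to high salt. Its FPKM was 2.43, 2.23 and 2.18 in vehicle, and 32.2, 30.2 and 32.7 in vehicle with NaCl. In mifepristone it was 4.20, 4.37 and 4.53, and in mifepristone with NaCl 83.8, 83.0 and 80.9. The groups did not overlap and were ordered vehicle, mifepristone, vehicle with NaCl, and mifepristone with NaCl. Mean FPKM rose 13.9-fold with NaCl in vehicle cells and 18.9-fold in mifepristone cells. On the log2(FPKM + 0.5) scale the rises were 3.53 (SE 0.0446, adjusted p = 5.25e-13) and 4.09 (SE 0.0446, adjusted p = 1.48e-13), placed 18 and 15 of 14044 genes by size. Mifepristone raised Sgk1 by 0.81 without NaCl (SE 0.0446, adjusted p = 4.28e-08) and by 1.37 with NaCl (SE 0.0446, adjusted p = 5.50e-10). The NaCl effects differed by 0.56 (SE 0.0631, adjusted p = 7.94e-05). Sgk1 thus had the same direction of change for both treatments, alone and together.

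The sequence upstream of a Sgk1 transcript start was searched for the DNA motif that steroid receptors bind, because the gene is a known direct target of both corticosteroid receptors. RefSeq (GRCm38.p6) lists 6 Sgk1 start sites in its promoter windows of 300 bases. The start at position 21993890 of chromosome 10 has the following 250 bases before it, at chr10:21993640-21993889 on the plus strand, with matches to the steroid half-site AGAACA and to the tonicity element core TGGAAA, on either strand, in capitals:
Sgk1 upstream: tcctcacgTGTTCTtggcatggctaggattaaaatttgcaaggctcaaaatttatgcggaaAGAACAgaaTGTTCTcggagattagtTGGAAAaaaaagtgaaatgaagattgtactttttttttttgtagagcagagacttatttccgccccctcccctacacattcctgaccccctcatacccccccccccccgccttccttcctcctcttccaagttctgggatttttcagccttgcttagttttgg
The palindrome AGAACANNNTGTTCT, which is 2 half-sites with 3 bases between them, begins at position -189 relative to the start. It was found in 3 of 32851 windows of the same length in the mouse table (0.00913%), a count that includes the Sgk1 window itself. A further half-site on the minus strand begins at position -242, and a TGGAAA core at position -163. Of the other 5 Sgk1 windows, that of the start at 21882184 holds a half-site at -195, that of the start at 21992223 holds one at -13, and 3 hold none. This window is shown because it holds the palindrome. Half-sites alone occurred in 19.0% of all windows and TGGAAA in 21.4%. The core TGGAAA was added to the search after the data were seen. A match describes letters in this window and no binding was measured here.

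Tsc22d3 (chrX:140539528-140600659, minus strand) encodes GILZ, a leucine zipper protein that is a widely used readout of glucocorticoid receptor activity. Its FPKM was 5.47, 5.06 and 4.83 in vehicle, and 5.43, 5.20 and 5.18 in vehicle with NaCl. In mifepristone it was 4.81, 4.81 and 6.03, and in mifepristone with NaCl 4.57, 4.37 and 4.25. Mifepristone with NaCl was the lowest group and did not overlap any other, while the other 3 groups overlapped. Mifepristone C alone lay at 6.03 against 4.81 in both other libraries of its group. The difference between mifepristone and vehicle without NaCl was 0.02 on the log2 scale (95% interval -0.15 to 0.19, adjusted p = 0.850), and -0.08 without mifepristone C. NaCl in vehicle cells gave a difference of 0.04 (95% interval -0.13 to 0.21, adjusted p = 0.683). Mifepristone lowered Tsc22d3 by 0.24 with NaCl present (SE 0.0760, adjusted p = 0.0197), a call lost without vehicle plus NaCl A (adjusted p = 0.0625) or mifepristone plus NaCl B or C (adjusted p = 0.0517 and 0.0619). NaCl lowered it in mifepristone cells by 0.22 (SE 0.0760, adjusted p = 0.0300). Without mifepristone C that change was -0.12 (adjusted p = 0.0676), and the call was also lost without mifepristone plus NaCl B or C (adjusted p = 0.0719 and 0.0875). The NaCl effects differed by -0.26 (95% interval -0.49 to -0.02, adjusted p = 0.0951), and leaving out both vehicle A and mifepristone C made it pass (-0.20, adjusted p = 0.0200).

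Klf9 (chr19:23141226-23168134, plus strand) encodes a Krüppel-like transcription factor that is induced by glucocorticoid in many tissues. Its FPKM was 4.45, 4.80 and 4.71 in vehicle, and 3.33, 3.53 and 3.57 in vehicle with NaCl. Mifepristone libraries held 13.5, 13.9 and 11.1, and in mifepristone with NaCl 3.31, 3.28 and 3.59. The 3 mifepristone libraries were all above 11 FPKM and the other 9 below 5 FPKM, and the 2 NaCl groups overlapped. Mifepristone raised Klf9 by 1.37 without NaCl (SE 0.0733, adjusted p = 3.73e-08), a 2.76-fold rise in mean FPKM. With NaCl present the difference was -0.03 (95% interval -0.19 to 0.13, adjusted p = 0.739). Added NaCl lowered it by 0.37 in vehicle cells (SE 0.0733, adjusted p = 0.00126) and by 1.77 in mifepristone cells (SE 0.0733, adjusted p = 5.35e-09). The difference between the NaCl effects was -1.40 (SE 0.104, adjusted p = 4.20e-06), placed 102 of 14044. Klf9 and Tsc22d3 thus did not follow each other: Tsc22d3 stood at 0.415 ± 0.110 times the Klf9 FPKM in mifepristone and at 1.10 to 1.52 times on average in the other 3 groups.

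The authors' deposited table marks a nearby ChIP peak for Klf9, and the sequence before its RefSeq start (GRCm38.p6, chr19:23140976-23141225, plus strand) is shown for comparison with that of Sgk1. It holds neither a steroid half-site nor a tonicity core. The mutated factor's half-site GTTAAT, found in 7.10% of windows, is in no window of the 6 members listed there:
Klf9 upstream: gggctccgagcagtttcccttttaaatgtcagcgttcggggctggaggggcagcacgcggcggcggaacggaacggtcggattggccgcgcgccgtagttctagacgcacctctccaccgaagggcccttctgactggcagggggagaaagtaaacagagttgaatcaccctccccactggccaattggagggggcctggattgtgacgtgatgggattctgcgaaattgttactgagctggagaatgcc
The absence of these letters from this window says nothing of sites elsewhere.

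Nedd4l encodes the ubiquitin ligase that limits the channel at the cell surface. Its FPKM was 12.1, 13.6 and 13.7 in vehicle, and 11.6, 11.9 and 11.9 in vehicle with NaCl. With mifepristone it was 12.1, 12.2 and 10.7, and in mifepristone with NaCl 8.39, 8.23 and 8.43. Mifepristone with NaCl was below all other libraries, and mifepristone overlapped both vehicle groups. Mifepristone lowered Nedd4l by 0.47 with NaCl present (SE 0.0567, adjusted p = 2.68e-05), and NaCl lowered it by 0.46 in mifepristone cells (SE 0.0567, adjusted p = 3.94e-05). The NaCl effects differed by -0.31 (SE 0.0801, adjusted p = 0.0137). The smaller changes of -0.16 with mifepristone without NaCl (SE 0.0567, adjusted p = 0.0274) and -0.15 with NaCl in vehicle cells (SE 0.0567, adjusted p = 0.0450) did not hold when certain single libraries were left out. The former ended on leaving out vehicle B (adjusted p = 0.0956) or C (adjusted p = 0.0953), or mifepristone C, where the change was -0.10 (adjusted p = 0.0785). The latter was lost without any 1 of vehicle B or C or of the 6 NaCl libraries (adjusted p = 0.0582 to 0.140). With vehicle A and mifepristone C left out together, both changes passed (adjusted p = 0.00161 and 0.000191). The antisense gene A330084C13Rik shares 277 exonic bases with Nedd4l, with the same limit on strand as for Nr3c2.

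With NaCl in mifepristone cells, mean Sgk1 FPKM rose 18.9-fold and mean Nedd4l FPKM fell 1.40-fold. In vehicle cells Sgk1 rose 13.9-fold, and the 1.11-fold fall of Nedd4l did not hold when certain single libraries were left out. The ratio of Sgk1 to Nedd4l FPKM was 0.175 ± 0.0222 in vehicle (SD, n = 3) and 2.69 ± 0.137 in vehicle with NaCl. It was 0.376 ± 0.0424 in mifepristone and 9.89 ± 0.258 in mifepristone with NaCl. The 4 groups did not overlap. RNA ratios say nothing of phosphorylation or of channel protein, which were not measured.

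Scnn1a (chr6:125320659-125344943, plus strand) encodes the alpha subunit. Its FPKM was 0.508, 0.627 and 0.597 in vehicle, and 0.341, 0.463 and 0.410 in vehicle with NaCl. Mifepristone libraries held 2.24, 2.06 and 1.94, and in mifepristone with NaCl 1.04, 1.04 and 1.25. The groups did not overlap and were ordered vehicle with NaCl, vehicle, mifepristone with NaCl, and mifepristone. The values rest on 63 to 420 reads per library. Mean FPKM was 3.60-fold higher with mifepristone without NaCl and 2.74-fold higher with NaCl. On the log2(FPKM + 0.5) scale these rises were 1.26 (SE 0.0807, adjusted p = 1.48e-07) and 0.83 (SE 0.0807, adjusted p = 4.61e-06). On recovered reads with voom they were 1.84 and 1.46. Scnn1a reached 1 FPKM only in mifepristone libraries, so a rise was bound to accompany its being tested. NaCl lowered Scnn1a by 0.68 in mifepristone cells (SE 0.0807, adjusted p = 2.63e-05). In vehicle cells it lowered Scnn1a by 0.25 (SE 0.0807, adjusted p = 0.0201), a call that ended when vehicle B (adjusted p = 0.0709), vehicle C (adjusted p = 0.0542) or vehicle plus NaCl A (adjusted p = 0.0782) was left out. The difference of NaCl effects was -0.43 (SE 0.114, adjusted p = 0.0156), and it did not pass with a pseudocount of 0.1 (adjusted p = 0.0834) or with voom (-0.38, adjusted p = 0.140).

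Scnn1g (chr7:121734479-121768475, plus strand), the gamma subunit, had 16, 19 and 15 reads in vehicle and 26, 9 and 15 in vehicle with NaCl. It had 12, 13 and 13 reads in mifepristone and 3, 4 and 1 in mifepristone with NaCl. The last group was below the other 9 libraries, and the 2 vehicle groups overlapped. Mean FPKM was 0.123 in both vehicle groups, 0.0893 in mifepristone and 0.0201 in mifepristone with NaCl. No mifepristone library reached 0.1 FPKM, so the gene passed the lower filter only through vehicle libraries, where it is high, and a lower level with mifepristone was bound to accompany its passing. In the voom analysis with that filter, the change with NaCl in mifepristone cells was -2.18 (95% interval -3.33 to -1.04, adjusted p = 0.00352), and that of mifepristone with NaCl present was -2.49 (95% interval -3.62 to -1.37, adjusted p = 0.00112). The NaCl effects differed by -2.06 (95% interval -3.44 to -0.69, adjusted p = 0.0317). With the same filter on the log2(FPKM + 0.5) scale, only the change of mifepristone with NaCl present passed (-0.25, adjusted p = 0.0106).

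Scnn1b (chr7:121865038-121918514, plus strand), the beta subunit, was not tested under either filter. It had 2, 1 and 0 reads in vehicle, 1, 0 and 1 in vehicle with NaCl, 3, 1 and 5 in mifepristone, and 4, 1 and 0 in mifepristone with NaCl, 19 reads in all. A count of 0 allows up to 3 reads, or 0.0609 to 0.0659 CPM (reads scaled to a common library size) in the 3 libraries without a read, by counting error alone. All 4 groups overlapped and no difference was detectable at this depth. Scnn1a made up 81.4% ± 3.55 of the summed FPKM of the 3 subunits in vehicle, 76.1% ± 12.5 in vehicle with NaCl, 94.8% ± 0.804 in mifepristone and 96.9% ± 2.33 in mifepristone with NaCl (SD, n = 3).

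Other genes of the pathway were described from lists, by counts and by medians set beside those of all tested genes. The shares of all tested genes raised and lowered were 28.3% and 31.5% for mifepristone without NaCl, 26.8% and 31.9% with NaCl, 25.2% and 31.5% for NaCl in vehicle cells, and 24.5% and 34.2% for NaCl in mifepristone cells, and the counts of every list below stand against these. Of 26 regulators of the channel and of distal sodium transport, 21 were tested. Mifepristone raised 7 and lowered 6 of them without NaCl (median log2 change -0.07, all genes -0.01), and raised 4 and lowered 11 with NaCl (median -0.26, all genes -0.03). Wnk4, a kinase that controls distal salt transporters, fell by 1.58 without NaCl (adjusted p = 4.7e-10) and by 1.97 with NaCl (adjusted p = 8.3e-11). Its mean FPKM went from 7.70 in vehicle to 2.24 in mifepristone. Cnksr3, an aldosterone-induced scaffold of the channel complex, fell by 0.93 with NaCl present (adjusted p = 1.8e-08). Oxsr1, a kinase downstream of the WNKs, fell by 0.63 and 0.55 (adjusted p = 5.9e-08 and 1.7e-07).

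Added NaCl raised 10 and lowered 3 of the 21 regulators in vehicle cells (median 0.19, all genes -0.02), and raised 6 and lowered 9 in mifepristone cells (median -0.10, all genes -0.06). Atp1b1, the beta subunit of the sodium pump, rose by 2.06 in vehicle cells (adjusted p = 1.0e-11) and by 1.66 in mifepristone cells (adjusted p = 4.7e-11). Its mean FPKM was 85.8 in vehicle, 360.1 in vehicle with NaCl, 157 in mifepristone and 496 in mifepristone with NaCl. The kinase gene Stk39 rose by 1.91 and 1.18 (adjusted p = 3.2e-10 and 1.2e-08). The NaCl effect differed between mifepristone and vehicle cells for 11 of the 21 (1 positive, 10 negative), against 31.1% of all genes (13.6% positive, 17.5% negative), among them Stk39 (-0.73) and Atp1b1 (-0.41).

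The channel is also opened by proteases that cut its alpha and gamma subunits. Of 15 protease and inhibitor genes, 12 were tested, and mifepristone without NaCl raised 6 and lowered 5 (median 0.16). With NaCl it raised 5 and lowered 6 (median -0.27). Hgfac reached 1 FPKM only in vehicle libraries, so a lower level with mifepristone was bound to accompany its being tested. Furin, which cuts the subunits inside the cell, rose by 2.23 without NaCl (adjusted p = 2.7e-10) and by 1.71 with NaCl (adjusted p = 1.8e-09), with a mean FPKM of 5.93 in vehicle and 29.7 in mifepristone. Prss8, the gene of prostasin, a membrane protease of the same role, fell by 0.92 with NaCl present (adjusted p = 1.0e-08). NaCl raised 5 and lowered 5 of the 12 in vehicle cells (median 0.12), and raised 4 and lowered 6 in mifepristone cells (median -0.25). Plat, encoding tissue plasminogen activator, rose with NaCl by 2.97 in vehicle and 1.15 in mifepristone cells (adjusted p = 1.0e-12 and 1.4e-09), and its NaCl effects differed by -1.82 (adjusted p = 1.8e-08).

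**Figure D4:**
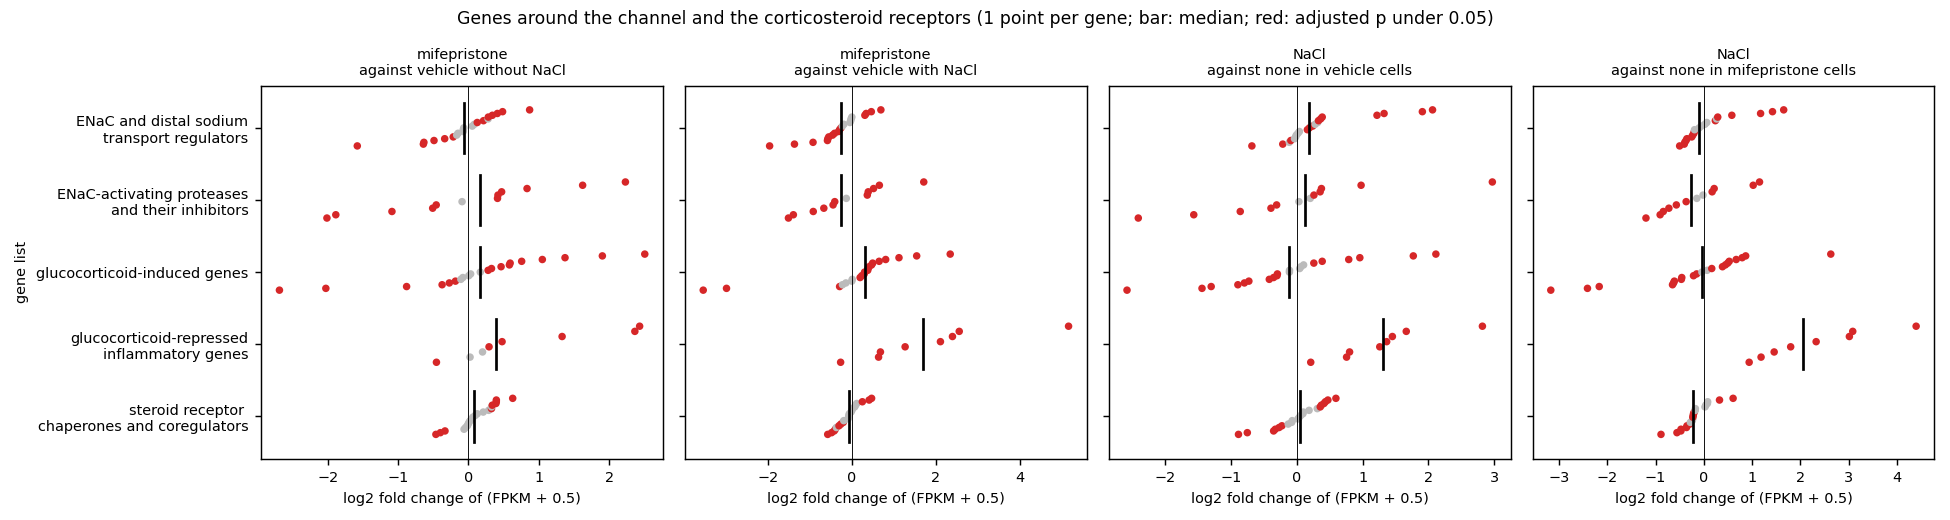
Log2 fold changes of FPKM + 0.5 for the tested genes of 5 lists in the 4 pairwise comparisons, each panel with its own horizontal range; every point is 1 gene, red marks an adjusted p under 0.05 and the black bar is the list's median. All 8 tested inflammatory genes lie to the right of 0 in both NaCl panels, 1 of them having passed the filter only through NaCl libraries, and glucocorticoid-induced genes spread to both sides.

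Of 30 genes known to be induced by glucocorticoid, 21 were tested. Mifepristone raised 10 and lowered 6 without NaCl (median 0.17), and raised 14 and lowered 3 with NaCl (median 0.30). Nfkbia, the inhibitor of NF-kappaB, rose by 2.51 and 2.34 (adjusted p = 1.3e-10 and 1.5e-10), and Bcl6, a transcriptional repressor, by 1.90 and 0.80 (adjusted p = 8.1e-11 and 5.7e-08). The metallothionein genes Mt2 and Mt1 went the other way, by -2.69 and -2.03 without NaCl (adjusted p = 5.1e-09 and 7.2e-08) and by -3.55 and -2.99 with NaCl (adjusted p = 5.0e-10 and 2.7e-09). Mean FPKM of Mt2 was 68.9 in vehicle and 10.3 in mifepristone. Fkbp5, a receptor co-chaperone and a common marker of glucocorticoid action, rose by 0.33 and 0.47 (adjusted p = 4.0e-05 and 2.1e-06). Members of the list thus changed in both directions within each comparison.

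Added NaCl raised 6 and lowered 10 of the 21 in vehicle cells (median -0.11), and raised 9 and lowered 10 in mifepristone cells (median -0.04). Map3k6 reached 1 FPKM only in libraries without NaCl, so a lower level with NaCl was bound to accompany its being tested. Those were 2 vehicle and 3 mifepristone libraries, so the vehicle groups alone would not have passed it. Dusp1, a phosphatase of MAP kinases, rose by 2.11 and 2.63 (adjusted p = 1.9e-10 and 2.8e-11), and Lcn2, encoding lipocalin, fell by 2.58 and 3.17 (adjusted p = 5.7e-11 and 1.0e-11). Of 18 inflammatory genes that glucocorticoid is known to repress, 8 were tested. All 8 rose with NaCl in vehicle cells (median 1.31) and in mifepristone cells (median 2.06), against 25.2% and 24.5% of all tested genes. Of these, Cxcl2 passed the filter only through NaCl libraries, so its rise was bound to accompany its being tested. Among the 10 untested genes of the list, each below the filter, mean FPKM was higher with NaCl for 8 in vehicle cells and 9 in mifepristone cells, and lower in vehicle cells for Vcam1 (0.0933 to 0.0353) and Il11 (0.204 to 0.167). Mifepristone raised 5 and lowered 1 of the 8 tested genes without NaCl (median 0.39), and raised 7 and lowered 1 with NaCl (median 1.69). Ccl7 is among those raised. It reached 1 FPKM in no vehicle library, 2 vehicle with NaCl libraries and all mifepristone libraries. The vehicle groups alone would not have passed it, so its rise with mifepristone was bound to accompany its being tested. The chemokine gene Ccl2 rose with mifepristone by 2.37 and 2.56 (adjusted p = 7.2e-10 and 3.4e-10), with a mean FPKM of 7.46 in vehicle, 55.9 in vehicle with NaCl, 40.5 in mifepristone and 331 in mifepristone with NaCl.

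Among the 22 chaperones and coregulators of steroid receptors, all tested, mifepristone raised 6 and lowered 3 without NaCl (median 0.08), and raised 3 and lowered 7 with NaCl (median -0.07). NaCl raised 6 and lowered 6 in vehicle cells (median 0.05) and raised 2 and lowered 11 in mifepristone cells (median -0.22). Fkbp4, the co-chaperone that carries receptors toward the nucleus, fell with NaCl by 0.89 in both backgrounds (adjusted p = 1.7e-07 and 1.3e-07). Of 20 genes of steroid metabolism, export and other receptors, 12 were tested, and 5 rose and 4 fell with mifepristone without NaCl (median 0.06), against 5 and 6 with NaCl (median -0.13). NaCl raised 4 and lowered 4 of them in vehicle cells (median 0.05), and raised 4 and lowered 5 in mifepristone cells (median -0.01). Srd5a1, a steroid reductase, fell with mifepristone by 1.46 and 1.76 (adjusted p = 9.0e-11 and 2.1e-11). Pgr, the progesterone receptor to which mifepristone also binds, rose by 1.07 and 0.95 (adjusted p = 3.3e-08 and 8.5e-08), with a mean FPKM of 0.248 in vehicle and 1.07 in mifepristone. Pgr and Abcb1b reached 1 FPKM only in mifepristone libraries, so a rise was bound to accompany their being tested. For Abcb1b these were 1 library without NaCl and 3 with NaCl, so the groups without NaCl alone would not have passed it. Akr1c14 reached it only in libraries without NaCl, so a fall with NaCl was bound to accompany its being tested.

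Of 9 relatives of Klf9 and Tsc22d3, all tested, mifepristone raised 4 and lowered 4 without NaCl (median -0.01), and raised 2 and lowered 5 with NaCl (median -0.19). NaCl raised 5 and lowered 3 in vehicle cells (median 0.17) and raised 3 and lowered 4 in mifepristone cells (median -0.09). Klf10 rose with mifepristone by 2.20 and 1.92 without and with NaCl (adjusted p = 5.8e-12 and 1.5e-11). Its mean FPKM was 12.7 in vehicle, 8.18 in vehicle with NaCl, 60.2 in mifepristone and 32.3 in mifepristone with NaCl.

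Genes with the most similar pattern were sought among 10791 genes by Pearson correlation of log2 values over the 12 libraries, which fall into 4 groups and are not independent points. For Sgk1 these were Hif1a (r = 0.999), Nrip3 (0.997) and Gem (0.996). Hif1a had a mean FPKM of 34.1 in vehicle, 175 in vehicle with NaCl, 48.4 in mifepristone and 355 in mifepristone with NaCl. For Hsd11b2 they were Ly6a, Msln and Slc20a2 (0.996, 0.996 and 0.995), for Klf9 Sh3rf1, Pik3r1 and Lrrc58 (0.998, 0.997 and 0.995), and for Scnn1a Eml4, Ptgfrn and Eps15l1 (0.995, 0.993 and 0.992).

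In the authors' deposited tables, 5 of the 10 genes carry the mark of a nearby ChIP peak (Nr3c1, Nr3c2, Hsd11b2, Klf9 and Nedd4l). Among tested genes the mark was on 4 of 7 members (57.1%) and on 3987 of 14044 genes (28.4%). Neither Sgk1 nor Scnn1a carries it. The authors' deposited table gives mifepristone log2 fold changes of 2.31 for Hsd11b2 (adjusted p = 1.23e-28), 1.81 for Scnn1a (7.68e-08) and 1.45 for Klf9 (1.55e-05). It gives 0.93 for Sgk1 and -0.99 for Nr3c2, each with an adjusted p of 1. For the interaction the authors' deposited table gives 2.25 for Hsd11b2 (adjusted p = 7.18e-07) and -1.50 for Klf9 (0.0402), and an adjusted p of 1 for the other members it lists.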

How the data were processed

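Poly(A) RNA libraries were made by TruSeq chemistry, per the labels' protocols. The submitters' processing notes name GRCm38 and the tools DESeq2 1.12.3, SAMtools 1.0, STAR 2.4.2a and Trimmomatic 0.32. Counting program, annotation and strand use were not given in the sources used here. The authors deposited FPKM values per library. The authors' deposited comparisons give log2 fold changes, adjusted p-values, the mean signal of each gene (normalized counts) and whether a ChIP peak lies nearby, per the file headers. In the authors' tables no gene with a log2 fold change under 1.07 in size (mifepristone) or 1.21 (interaction) has an adjusted p-value below 1, so a minimum fold may have been tested.

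Vehicle columns matched the labels by name. Mutant columns were matched to the mifepristone labels by their NaCl part, letter and knowledge of the study, leaving 0 columns without a sample. Neither a check of the targeted gene nor values of some listed genes are reported here.

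FPKM values multiplied by mean signal over mean FPKM, then divided by the value of 1 read in that library, gave whole reads for 100% of values (tolerance 0.05). These showed the FPKM to be scaled by size factors rather than by total reads. Comparisons were fitted in R 4.3.3 with limma 3.58.1, trended and robust, on log2(FPKM + 0.5) with 4 group means and 8 residual degrees of freedom. It ran on 14044 genes with at least 1 FPKM in 3 libraries, with Benjamini-Hochberg adjustment and calls at an adjusted p under 0.05. Voom with the lower filter covered 20307 genes. The fit was tested on simulated data. Gene positions and exon lengths came from GENCODE M21 (98.3% of identifiers matched).

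All members were named. Up to 4 called genes per list and comparison, by smallest adjusted p, could be named, and similar genes were named for the 4 members with the widest range. Fkbp5 is on both the list of glucocorticoid-induced genes and that of chaperones and coregulators. Genes named for how they passed or missed the filter, and Hsd11b1, stand outside that rule. Members and lists were chosen with earlier results of these data known. Alternatives were other pseudocounts, filters and scalings, a replicate block, array weights, voom, and leaving out libraries. Scaling to total reads and voom with the lower filter were added after the data were seen. RefSeq windows were found for 6 of 10 members. Other steps used pandas 2.3.3 and numpy 2.4.6 under Python 3.11.15, and matplotlib 3.10.9 for figures.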

Additional observations from a re-analysis of the deposited data

Results flagged for a closer look

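The effect of NaCl differed between mifepristone and vehicle cells by the test of the difference itself (limma) for 6 of the 7 tested genes. Over all tested genes the share was 31.1%. The difference, as the log2 NaCl effect in mifepristone cells minus that in vehicle cells, was 1.46 for Hsd11b2 (adjusted p = 1.56e-06) and 0.56 for Sgk1 (adjusted p = 7.94e-05). It was -1.40 for Klf9 (adjusted p = 4.20e-06), -0.55 for Nr3c1 (adjusted p = 0.000639), -0.43 for Scnn1a (adjusted p = 0.0156) and -0.31 for Nedd4l (adjusted p = 0.0137). The Scnn1a call was lost with a pseudocount of 0.1 (adjusted p = 0.0834) and with voom (adjusted p = 0.140). By estimate, Hsd11b2 and Nr3c1 changed in opposite directions with NaCl in the 2 backgrounds. The other 4 changed in 1 direction by unequal amounts. In vehicle cells the direction held, but the NaCl call was lost under 4 alternative settings for Nr3c1, 12 for Nedd4l and 3 for Scnn1a.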

How the results depend on the processing

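Each of the 35 results for single genes was recomputed under 24 alternatives, 840 values in all. Of these, 792 kept direction and side of the threshold, 37 lost the call, 5 gained one and 6 changed sign, and 23 of the 35 results kept both throughout. All 5 results of Hsd11b2 and all 5 of Sgk1 were among them. The sign changes were of differences that did not pass any test: Tsc22d3 with mifepristone without NaCl was -0.0563 with array weights, -0.0187 without vehicle C and -0.0362 without vehicle A and mifepristone C, and ranged from -0.0804 (without mifepristone C) to 0.0684 with 1 library left out. With scaling to total reads, Klf9 with mifepristone and NaCl was 0.000245 and Tsc22d3 with NaCl in vehicle cells was -0.00235. That scaling gave 2469 positive and 1983 negative interactions over all genes, against 1915 and 2459 in the main analysis.

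Of 4374 genes with an interaction, the number became 8144 with array weights and 6784 without mifepristone C, and the cause was not tested. With 1 library left out, calls ranged from 7621 to 9182 for mifepristone, 7321 to 9235 for mifepristone with NaCl, 6939 to 8975 for NaCl in vehicle cells, 7290 to 8699 for NaCl in mifepristone cells and 3512 to 6784 for the interaction. Members called ranged from 5 to 6, 4 to 6, 4 to 6, 6 to 7 and 6 to 6.

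Deviations of same-letter libraries from their group means correlated from -0.500 to 0.288, with 6 of 18 pairs over 0.1. Their mean was -0.043, against 0.023 for libraries of other letters. The trend with exon length also enters these deviations, so they cannot show whether the letters mark pairs. A replicate block gave 7972 calls for mifepristone against 8391, and under it NaCl no longer passed for Nedd4l in vehicle cells (adjusted p = 0.0687) or Tsc22d3 in mifepristone cells (adjusted p = 0.0502). Tsc22d3 there also lost its call with no filter (0.0575), median-ratio scaling (0.0530) and quantile normalization (0.0742). Depth limits Scnn1b and Scnn1g, with 19 and 146 reads over 12 libraries.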
